A study of Arabidopsis thaliana with 36 samples.

Results

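Histone H3 wraps DNA into nucleosomes together with histones H4, H2A and H2B. The genes described here are the 5 Arabidopsis thaliana genes for the replication-linked form, H3.1 (AT1G09200, AT3G27360, AT5G10390, AT5G10400 and AT5G65360), and the 3 genes for the replacement form, H3.3 (AT4G40030, AT4G40040 and AT5G10980). They were chosen by gene code, not by a cut on measured values, but with earlier results of these data known. They are 8 of the 33619 codes in the deposited expression table. mRNA of whole 4-day seedlings was sequenced in 12 groups of 3 libraries, which the labels number 1 to 3. One experiment, called ethylene here, used the wild type Col-0 in liquid medium holding 0.5% glucose. It compared 10 µM ACC, from which plants make ethylene, with mock after 2 h and after 4 h. Another, called glucose-TOR, kept seedlings without glucose for their 4 days and then gave 15 mM glucose, or none, over 2 h, to Col-0 and to an inducible tor line whose genotype is labelled XVE-TOR RNAi. XVE is an estradiol-inducible promoter system, TOR is a growth-promoting protein kinase, and the labels do not state when or with what the construct was induced. The last, called glucose-HXK1, applied the same feeding to the wild type Ler and to the HXK1 mutant gin2. The HXK1 protein is a hexokinase and a sensor of glucose.

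H3.1 is made mainly when cells copy their DNA, and the chaperone complex CAF-1 (FAS1, FAS2 and MSI1) places it on newly copied DNA. H3.3 is made throughout the cell cycle and in cells that no longer divide, and the HIRA complex places it at transcribed genes. In Arabidopsis seedlings H3.1 is therefore best known from the dividing cells of the root and shoot tips, and H3.3 from all tissues.

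By translation of the RefSeq coding sequences, the 5 H3.1 genes encode 1 shared protein of 136 residues, and it differs from the 136-residue H3.3 protein at 4 positions. The genes themselves are less alike. Coding sequences were 80.3% to 89.5% identical among H3.1 genes, 78.6% to 88.8% among H3.3 genes and 74.0% to 80.3% between the classes. No stretch of 100 bases of any member's exons occurs elsewhere in the genome, and stretches of 50 bases do so only in AT3G27360 (1.28% of them) and AT5G10400 (1.36%). Reads of the 8 genes can thus largely be told apart by sequence, but how reads that match several genes were counted is not given in the sources used here. AT3G27360 also shares 328 bases of its annotated extent with AT3G27380 (SDH2-1, a succinate dehydrogenase subunit) on the same strand, so its low values are uncertain.

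Upstream sequences were read because the H3.1 genes moved together in the results below. Plant histone promoters are known for the octamer CGCGGATC and the hexamer ACGTCA, and genes of DNA replication for sites of the E2F transcription factors, searched here as TTTCCCGC, TTTGGCGC, TTTCGCGC and TTTGCCGC. Windows of 300 bases before the annotated gene start were searched on both strands, and no match in a member overlapped another. The windows of AT3G27360, AT4G40030 and AT4G40040 overlap annotated neighbours (AT3G27380, AT4G40040 and AT4G40042, in that order), so they partly hold sequence of other genes. The octamer was found in 3 of 5 H3.1 windows and 1 of 3 H3.3 windows, and in 41 of the windows of 27443 nuclear protein-coding genes (0.149%). AT1G09200 holds it at 90 and 19 bases before the gene start, AT5G10400 at 120, AT5G65360 at 126 and AT4G40040, on the other strand, at 17. The hexamer was in 2 of 5 H3.1 windows (AT3G27360 and AT5G10400) and 1 of 3 H3.3 windows (AT5G10980, at 61 and 6 bases), and in 8.72% of all windows. An E2F form was in 1 H3.1 window, that of AT5G10390, in no H3.3 window and in 1.57% of all windows. A match describes these letters only, and it is no evidence that a factor binds there.

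The stretches below hold the octamer matches and the E2F form, with each match in capitals, and AT5G10400 also shows the hexamer on its other strand. They are from RefSeq TAIR10.1, all on the minus strand and printed in the direction of the gene. They lie at chr1:2972335-2972454 (AT1G09200), chr5:3271005-3271124 (AT5G10400), chr5:26120588-26120707 (AT5G65360), chr4:18558946-18559065 (AT4G40040) and chr5:3269731-3269850 (AT5G10390). The expression table carries no coordinates and was joined to this annotation by gene code.
AT1G09200: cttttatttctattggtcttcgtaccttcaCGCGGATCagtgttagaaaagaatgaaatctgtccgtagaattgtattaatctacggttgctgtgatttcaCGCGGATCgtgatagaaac
AT5G10400: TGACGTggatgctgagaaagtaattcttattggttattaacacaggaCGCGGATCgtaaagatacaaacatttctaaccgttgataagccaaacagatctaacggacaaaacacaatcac
AT5G65360: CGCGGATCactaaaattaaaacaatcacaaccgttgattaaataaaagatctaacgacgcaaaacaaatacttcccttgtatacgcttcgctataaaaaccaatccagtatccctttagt
AT4G40040: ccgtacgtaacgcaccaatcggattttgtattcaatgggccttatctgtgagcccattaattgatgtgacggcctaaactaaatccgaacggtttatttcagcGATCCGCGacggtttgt
AT5G10390: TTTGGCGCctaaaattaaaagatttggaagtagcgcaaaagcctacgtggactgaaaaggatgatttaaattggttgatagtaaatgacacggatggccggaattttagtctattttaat

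Values are RPM (reads per 1000000 reads), with group means ± SD over n = 3 libraries. Reads on listed genes per library, in M (reads divided by 1000000), were 16.4 to 21.5 in the ethylene experiment, 13.3 to 21.9 in the glucose-TOR experiment and 5.65 to 13.6 in the glucose-HXK1 experiment. In the last, RPM of the listed genes fell short of 1000000 by 26.8% to 54.3% in Ler and by 13% to 18% in gin2. What made up the missing part is not given, and Ler and gin2 levels are not on 1 scale. TOR (AT1G50030) was higher, not lower, in the libraries labelled tor, at 169 to 224 RPM against 95.4 to 120.2 RPM in Col-0, and tor below means libraries so labelled. HXK1 (AT4G29130) was lower in gin2, at 13.7 to 18.7 RPM against 21.7 to 66.2 RPM in Ler. The 3 green tissue markers, 3 root markers and 3 markers of dividing cells were above 0 in every library, as whole seedlings should show. In such bulk samples, fewer cells of a type and less RNA per cell cannot be told apart.

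Levels of the 8 genes spanned a wide range. AT3G27360 was lowest in every group, at 0.502 to 7.0 RPM, with as few as 9 reads in a library. It reached 1 RPM in 34 of 36 libraries, whereas the other 7 genes did so in all 36. Per kb of exon, so that genes of different length can be compared, AT4G40040 led in Col-0 without glucose at 262 ± 23.5 RPM per kb, followed by AT5G10980 at 182 ± 15.0 and AT4G40030 at 153 ± 8.08. The H3.1 genes came next, with AT5G65360 at 45.0 ± 2.19 RPM per kb, AT1G09200 at 32.4 ± 4.88, AT5G10400 at 21.0 ± 3.57, AT5G10390 at 7.66 ± 2.58 and AT3G27360 at 1.33 ± 0.699. Each neighbouring pair in this order differed by more than the sum of the 2 SDs. With glucose the H3.3 genes drew level at 193 ± 11 RPM per kb for AT4G40030, 174 ± 10.9 for AT5G10980 and 172 ± 2.51 for AT4G40040, and neighbours among them no longer differed beyond that spread.

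**Figure D1:**
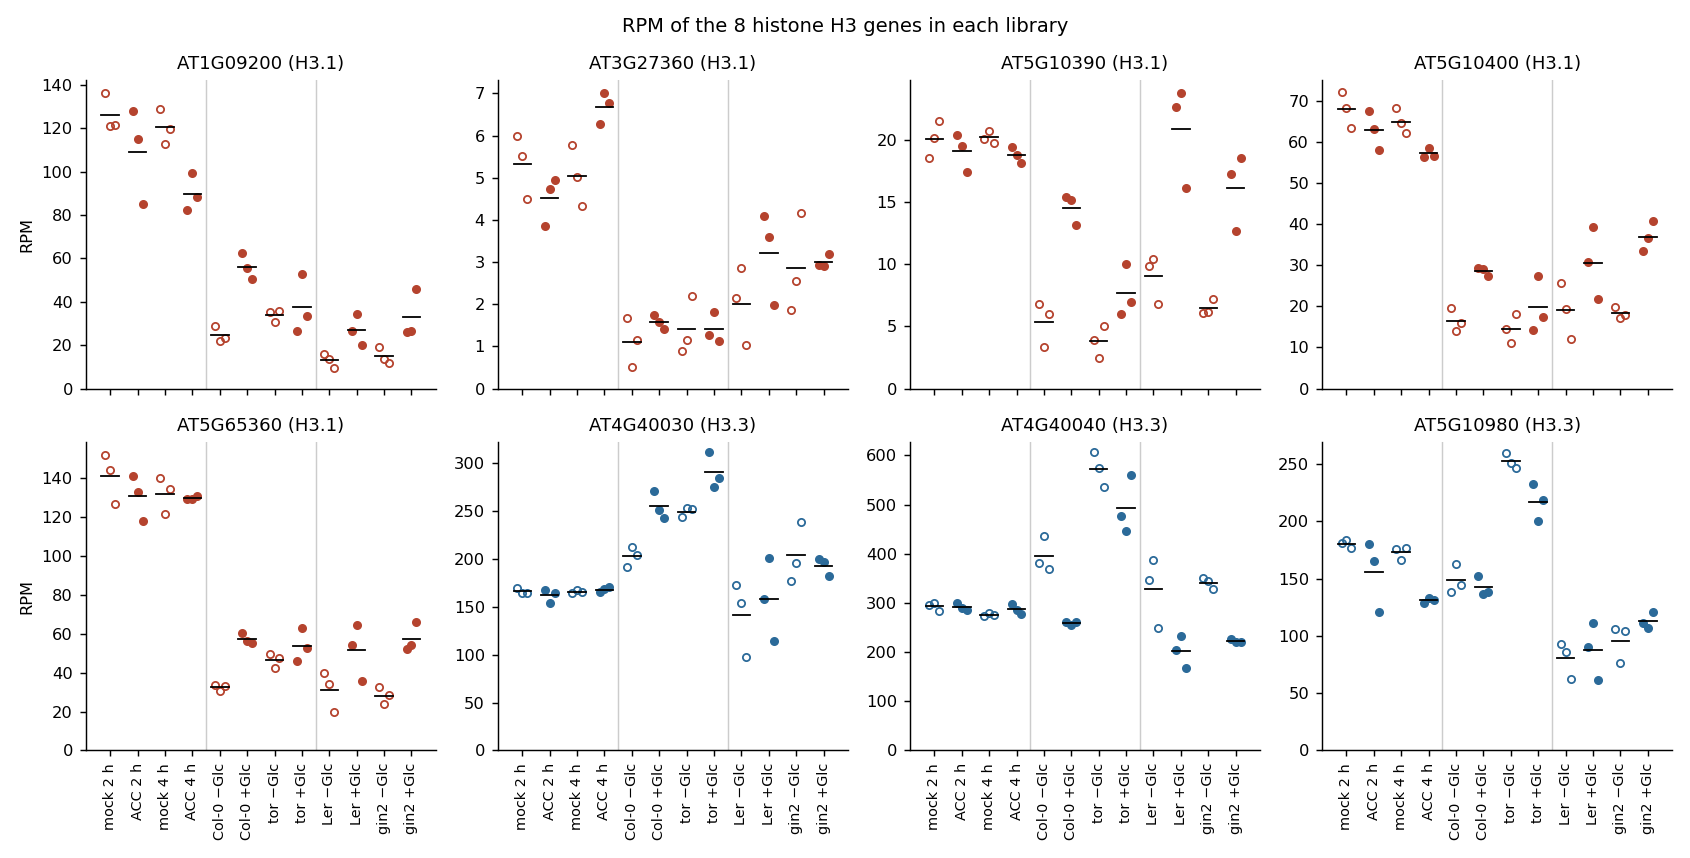
RPM of each H3 gene (vertical axes from 0, a separate scale per panel) in the 36 libraries, by group; points are libraries, bars are group means, open points are mock or no glucose, filled points are ACC or glucose. AT1G09200 stood at 22.1 to 29.0 RPM in Col-0 without glucose and at 50.6 to 62.5 RPM with it, while AT4G40040 stood at 369 to 436 RPM and at 255 to 262 RPM.

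H3.1 and H3.3 sums followed the growth conditions in different ways. In the ethylene experiment, whose seedlings had glucose throughout, H3.1 made up 45.1% to 48.5% of H3 RPM per kb in all 12 libraries. In seedlings kept without glucose its share was 15.3% ± 2.45 in Col-0, 13.3% ± 1.41 in tor, 18.9% ± 1.89 in Ler and 15.9% ± 1.49 in gin2. These are separate experiments, and the difference between them was not tested. After 2 h of glucose the share was 28.2% ± 0.723 in Col-0, 33.0% ± 0.896 in Ler and 31.1% ± 3.49 in gin2, with no overlap with the libraries without glucose. In tor it was 16.6% ± 4.53, and the libraries, at 13.2%, 21.7% and 14.9%, overlapped those without glucose at 13.4%, 11.8% and 14.7%.

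**Figure D2:**
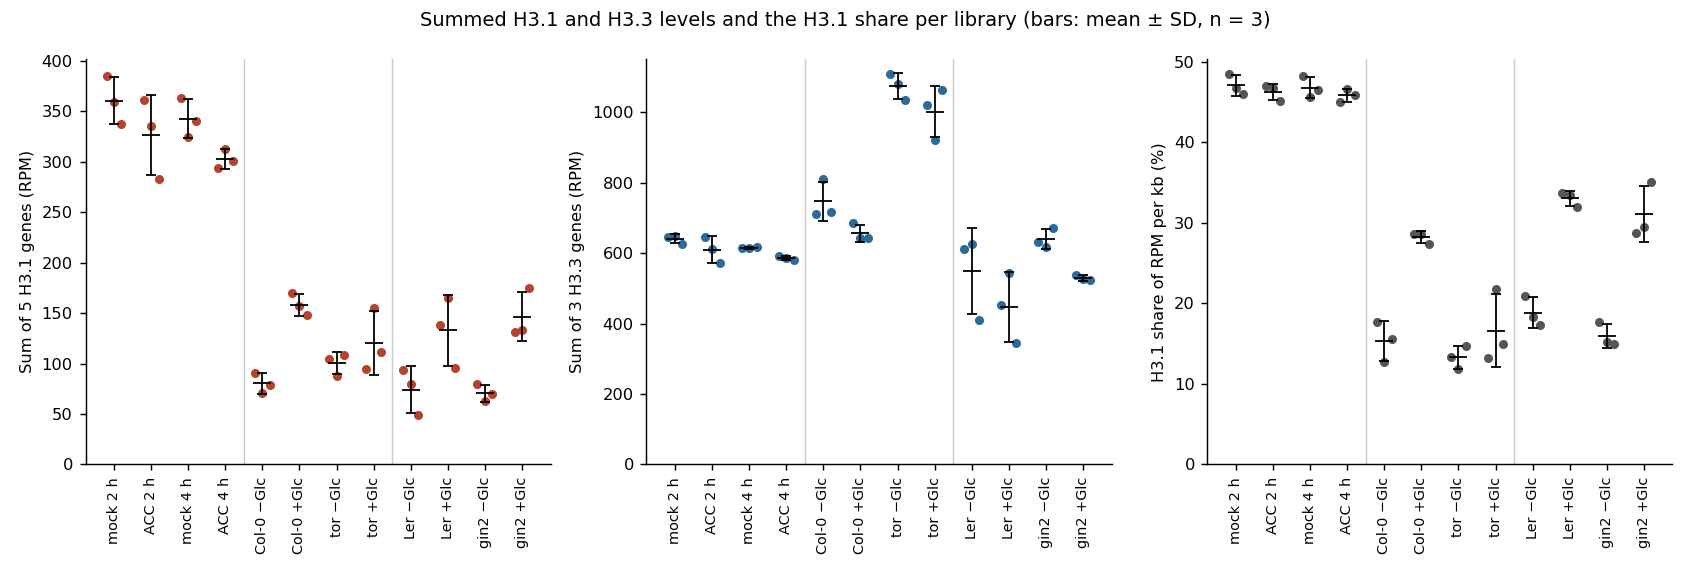
Sum of RPM over the 5 H3.1 genes, over the 3 H3.3 genes, and the H3.1 share of RPM per kb of exon (%), per library; points are libraries, and bars give the mean ± SD of 3 libraries. The share lay at 27.4% to 28.7% in Col-0 with glucose against 12.8% to 17.6% without it.

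Glucose was compared with no glucose in Col-0 to ask which transcripts respond to sugar after a period without it. H3.1 genes rose and the most abundant H3.3 gene fell. Of the 8 members 6 were called by limma (Benjamini-Hochberg adjusted p below 0.05 over all genes), against 56.3% of all 19336 genes tested. Among H3.1 genes 4 of 5 rose and none fell, with a median log2 change of 0.80 where that of all genes was 0.14, and among H3.3 genes 1 rose and 1 fell, with a median of -0.06. The summed H3.1 level went from 91.0, 70.9 and 79.2 RPM to 169, 158 and 148 RPM, and the summed H3.3 level went from 747 ± 55.6 to 657 ± 24.2 RPM.

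AT1G09200, an H3.1 gene, stood at 29.0, 22.1 and 23.1 RPM without glucose and at 62.5, 55.4 and 50.6 RPM with it. It rose by 1.16 ± 0.20 (log2 change ± SE, limma adjusted p = 0.000237), and every glucose library was above every other. AT5G10390, the H3.1 gene with the E2F form upstream, went from 6.81, 3.35 and 6.03 RPM to 15.4, 15.1 and 13.2 RPM. Its log2 rise of 1.32 ± 0.25 (limma adjusted p = 0.000511) was from a low level, again without overlap. AT5G65360, the most abundant H3.1 gene per kb, went from 33.8, 30.8 and 33.0 RPM to 60.5, 56.4 and 55.3 RPM and rose by 0.80 ± 0.11 (limma adjusted p = 4.08e-05). AT5G10400 went from 19.6, 14.1 and 15.9 RPM to 29.2, 29.0 and 27.5 RPM and rose by 0.77 ± 0.21 (limma adjusted p = 0.00753). Both were higher in all 3 glucose libraries than in any library without glucose. AT3G27360, at 0.502 to 1.75 RPM in these 6 libraries, overlapped between the groups (log2 change 0.33 ± 0.23, limma adjusted p = 0.233).

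Among the H3.3 genes, AT4G40040 stood at 381, 436 and 369 RPM without glucose and at 261, 255 and 262 RPM with it. It fell by 0.60 ± 0.10 on the log2 scale (limma adjusted p = 0.000188), with every glucose library lower. AT4G40030, its neighbour on chromosome 4, moved the other way, from 192, 213 and 204 RPM to 271, 252 and 243 RPM. That log2 rise of 0.33 ± 0.08 (limma adjusted p = 0.0032) was 0.19 relative to the median of all genes, and it was not called with median-of-ratios scaling (0.14), edgeR (0.11) or DESeq2 (0.13). AT5G10980, at 137 to 162 RPM in these libraries, overlapped between the groups and was not called (log2 change -0.06 ± 0.09, limma adjusted p = 0.585). On those other scalings it stood lower with glucose, and both count tests called it (log2 change -0.28 by edgeR and -0.26 by DESeq2). The share of AT4G40040 among H3.3 RPM went from 52.9% ± 1.29 to 39.5% ± 1.34, and that of AT4G40030 from 27.2% ± 1.11 to 38.8% ± 0.953.

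Among the 3 markers of dividing cells, the replication gene PCNA1 moved most, from 5.78 ± 1.15 to 31.5 ± 2.67 RPM. CYCB1;1, a mitotic cyclin, went from 2.42 ± 0.404 to 4.21 ± 0.500 RPM without overlap. SYP111, a syntaxin of dividing cells, stood at 10.6 ± 2.38 and 12.6 ± 1.73 RPM with overlapping libraries. Their sum was 14.7 to 22.0 RPM without glucose and 47.7 to 48.8 RPM with it, mostly through PCNA1, and the part of these markers in the H3.1 change was not tested. The 3 root markers summed to 1611 to 2410 RPM and 2350 to 2640 RPM, and the 3 green tissue markers to 32746 to 43597 RPM and 27807 to 31738 RPM, in the same order.

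The same treatment in tor asks which of these changes occur in the line so labelled. Here 2 of the 8 members were called, against 34.7% of all genes. AT5G10390 stood at 3.91, 2.46 and 5.04 RPM without glucose and at 5.99, 10.0 and 6.99 RPM with it, and rose by 0.86 ± 0.25 on the log2 scale (limma adjusted p = 0.0162). The groups did not overlap, but the change was no longer called without the glucose library numbered 2 (0.67, limma adjusted p = 0.0671) or without the other group's library numbered 2 (0.64, limma adjusted p = 0.0813). AT4G40030 rose by 0.22 ± 0.08 (limma adjusted p = 0.049), from 244, 253 and 252 RPM to 312, 275 and 285 RPM, and kept its call in only 4 of 14 alternatives. The other members were not called, and AT1G09200 is the clearest of them. It stood at 35.2, 30.9 and 35.9 RPM without glucose and at 26.4, 52.9 and 33.3 RPM with it (log2 change 0.08 ± 0.20, limma adjusted p = 0.78). The glucose library numbered 2 was the highest of the group for all 5 H3.1 genes. Without it the AT1G09200 change was -0.19, and without the library numbered 1 it was 0.30, neither called. Leaving out that library numbered 1 brought AT5G10400 (0.59, limma adjusted p = 0.0412) and AT5G65360 (0.30, limma adjusted p = 0.0325) past the threshold as rises and AT5G10980 (-0.27, limma adjusted p = 0.0295) as a fall. Leaving out the glucose library numbered 3 did so for AT4G40040 (-0.31, limma adjusted p = 0.0302), as a fall.

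The difference between the glucose effects in tor and in Col-0 was tested in 1 model. It was called for 2 of the 8 members, both H3.1 genes and both with a lower glucose effect in tor, against 17.4% of all genes. For AT1G09200 the difference was -1.07 ± 0.28 on the log2 scale (limma adjusted p = 0.0193), where the difference for the median gene was -0.10. It lost its call by edgeR (-0.87, adjusted p = 0.0689) but not by DESeq2 (-0.90, adjusted p = 0.0318), and also without the Col-0 glucose library numbered 1 (-0.99, adjusted p = 0.0535). For AT5G65360 it was -0.60 ± 0.16 (limma adjusted p = 0.0192), which was not called with median-of-ratios scaling, edgeR or DESeq2 (-0.48, -0.44 and -0.47), nor without the Col-0 glucose library or the tor library without glucose numbered 1 (-0.56 and -0.55). The other 3 H3.1 genes had differences of -0.31 to -0.46, and the H3.3 genes AT4G40030 and AT5G10980 of -0.11 and -0.16, none of them called. AT4G40040 differed by 0.39 ± 0.14 (limma adjusted p = 0.0776), and it was called by DESeq2 at 0.54 and without the tor glucose library numbered 2 at 0.46.

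Summed markers of dividing cells were 13.1 to 21.7 RPM in tor without glucose and 16.1 to 28.9 RPM with it, so that these groups overlapped as the H3.1 sums did. PCNA1 was at 3.12 to 6.66 RPM and 8.12 to 14.9 RPM, while CYCB1;1 and SYP111 overlapped between the groups. Their part in the result was not tested.

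**Figure D3:**
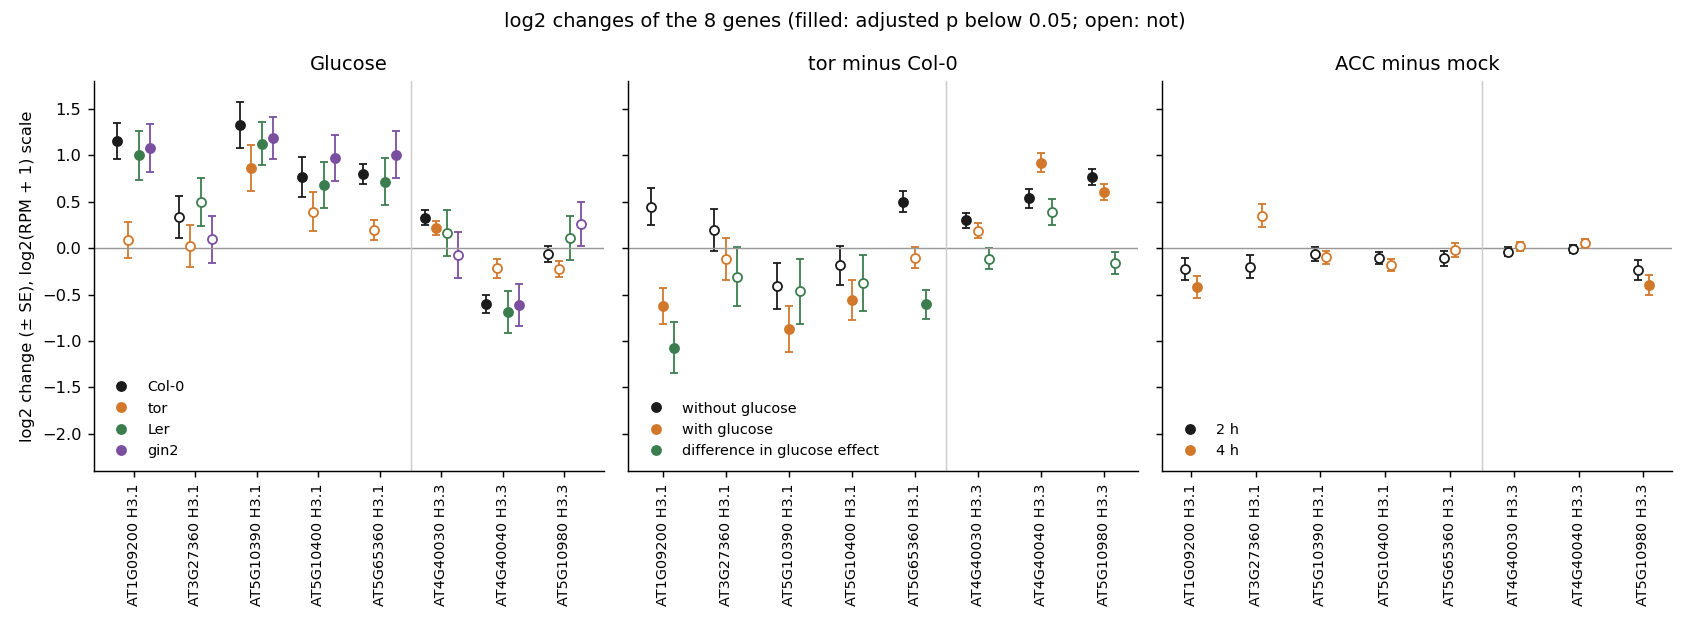
Changes on the log2(RPM + 1) scale (vertical axis) of the 8 genes, ± SE from the limma fit, for glucose in 4 genotypes (left), tor minus Col-0 without and with glucose and the difference between their glucose effects (middle), and ACC minus mock (right); filled points have adjusted p below 0.05. In Col-0, Ler and gin2, 4 of the 5 H3.1 genes were called as higher with glucose, and in tor 1 was.

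tor was also compared with Col-0 within each glucose condition. By RPM all 3 H3.3 genes were higher in tor without glucose, although with median-of-ratios scaling, edgeR or DESeq2 only AT5G10980 of them was called, and with glucose 3 H3.1 genes were lower while 2 H3.3 genes were higher. The counts were 4 of 8 members without glucose, all higher in tor, against 55.4% of all genes, and 5 of 8 with glucose, 2 higher and 3 lower, against 61.4%. RPM of the median gene was itself higher in tor, by 0.24 on the log2 scale without glucose and 0.14 with it. Markers of green tissue differed too, with sums of 32746 to 43597 RPM in Col-0 and 15750 to 18437 RPM in tor without glucose, and 27807 to 31738 RPM and 11077 to 22348 RPM with it. Summed dividing-cell markers were at 47.7 to 48.8 RPM in Col-0 and 16.1 to 28.9 RPM in tor with glucose, of which PCNA1 gave 29.0 to 34.4 RPM and 8.12 to 14.9 RPM. The part of these markers in the H3 differences was not tested.

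AT5G10980, an H3.3 gene, stood at 139, 162 and 145 RPM in Col-0 and at 259.9, 251 and 247 RPM in tor, both without glucose. It was higher in tor by 0.76 ± 0.09 (log2, limma adjusted p = 1.16e-05), or 0.52 above the median gene, and stayed called in all 14 alternatives. AT4G40040 was at 381, 436 and 369 RPM in Col-0 and at 606, 575 and 536 RPM in tor. Its log2 difference of 0.54 ± 0.10 (limma adjusted p = 0.000564) was not called with median-of-ratios scaling (0.25), edgeR (0.22) or DESeq2 (0.24). The same holds for AT4G40030 (0.30 ± 0.08, limma adjusted p = 0.00633, with 0.02, -0.01 and 0.01 in the same order) and for the H3.1 gene AT5G65360 (0.50 ± 0.11, limma adjusted p = 0.00185, with 0.23, 0.21 and 0.24). Under those scalings AT5G10390 was called as lower in tor (-0.64, -0.80 and -0.77), where RPM gave -0.41 ± 0.25 with no call.

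With glucose, AT4G40040 stood at 261, 255 and 262 RPM in Col-0 and at 476, 445 and 559.6 RPM in tor, a log2 difference of 0.92 ± 0.10 (limma adjusted p = 5.04e-06). AT5G10980 was at 153, 137 and 138 RPM and at 233, 200.4 and 218 RPM, 0.60 ± 0.09 higher in tor (limma adjusted p = 5.41e-05). Neither gene overlapped between the lines, and both stayed called in all 14 alternatives. Among the H3.1 genes, AT5G10390 was lower in tor by 0.87 ± 0.25 on the log2 scale (limma adjusted p = 0.00818), at 5.99 to 10.0 RPM against 13.2 to 15.4 RPM. AT1G09200, at 26.4 to 52.9 RPM against 50.6 to 62.5 RPM, had a log2 difference of -0.62 ± 0.20 (limma adjusted p = 0.0142), and its groups overlapped through the tor library numbered 2. That call was lost without the Col-0 library numbered 1 (-0.54, limma adjusted p = 0.0565) or the tor library numbered 1 (-0.41, limma adjusted p = 0.0564). AT5G10400, at 14.4 to 27.5 RPM against 27.5 to 29.2 RPM with the highest tor library just below the lowest of Col-0, differed by -0.56 ± 0.21 (limma adjusted p = 0.035) and kept its call in 7 of 14 alternatives.

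In the glucose-HXK1 experiment, glucose was tested in the wild type Ler and in gin2 to ask what depends on the HXK1 sensor. The pattern of Col-0 was seen in both lines. In each, 4 of 5 H3.1 genes rose and the H3.3 gene AT4G40040 fell, 5 of 8 members in all, against 28.7% of all 17352 genes tested in Ler and 27.5% in gin2. Median log2 changes of the H3.1 genes were 0.72 in Ler and 1.01 in gin2, where all genes had 0.10 and 0.13.

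AT1G09200 went from 16, 13.5 and 9.33 RPM to 26.4, 34.1 and 20.1 RPM in Ler, a log2 rise of 1.00 ± 0.26 (limma adjusted p = 0.00419). In gin2 it went from 19.3, 13.4 and 11.7 RPM to 25.9, 26.7 and 46.0 RPM and rose by 1.08 ± 0.26 (limma adjusted p = 0.00225). The groups did not overlap in either line. AT5G10390 rose by 1.13 ± 0.23 in Ler (9.87, 10.4 and 6.80 RPM to 22.7, 23.8 and 16.1 RPM, limma adjusted p = 0.00036). In gin2 it rose by 1.18 ± 0.23, from 6.09, 6.14 and 7.23 RPM to 17.3, 12.7 and 18.5 RPM (limma adjusted p = 0.000217). These 2 genes were called under all alternatives in both lines.

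AT5G65360 rose by 0.72 ± 0.25 in Ler (limma adjusted p = 0.0329) and by 1.01 ± 0.25 in gin2 (limma adjusted p = 0.00331). AT5G10400 rose by 0.68 ± 0.25 and 0.97 ± 0.25 (limma adjusted p = 0.0382 and 0.00376). In Ler both genes overlapped between the groups, since the library numbered 3 was low with and without glucose (35.9 and 19.9 RPM for AT5G65360). In that library pair the listed genes leave out the largest part of the RPM total. Without both libraries the log2 changes in Ler were 0.66 and 0.62, each still called. Both calls were lost in the fit to Ler and its glucose group alone and without any of 4 single Ler libraries (both libraries numbered 2, the one numbered 3 without glucose and the one numbered 1 with it), with log2 changes down to 0.43 and 0.40. AT4G40040 went from 347, 387 and 249.8 RPM to 204, 232 and 169 RPM in Ler (log2 change -0.69 ± 0.23, limma adjusted p = 0.0222), a call kept in 10 of 15 alternatives. In gin2 it went from 350.1, 345 and 329 RPM to 227, 221 and 220.4 RPM (log2 change -0.61 ± 0.23, limma adjusted p = 0.044). The gin2 groups did not overlap, and the fit to the 6 gin2 libraries alone kept the call. In the fit to the whole experiment it was lost when any 1 gin2 library was left out, with limma adjusted p up to 0.128. AT3G27360, AT4G40030 and AT5G10980 were not called in either line, with log2 changes of -0.07 to 0.50.

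No member was called for the difference between the glucose effects in gin2 and Ler, where 0.294% of all genes were, nor did any have an unadjusted limma p below 0.05. The differences ran from -0.40 ± 0.36 for AT3G27360 to 0.29 ± 0.36 for AT5G65360 on the log2 scale, with SEs of 0.32 to 0.37. These intervals are wide, and the result does not show that the lines responded alike. Summed markers of dividing cells were 20.7 to 37.3 RPM and 31.3 to 59.5 RPM in Ler without and with glucose, and 32.8 to 37.1 RPM and 57.1 to 60.6 RPM in gin2. The markers did not move together. PCNA1 went from 9.79 ± 2.65 to 29.2 ± 6.94 RPM in Ler and from 7.52 ± 0.869 to 35.9 ± 0.370 RPM in gin2. SYP111 stood at 16.1 ± 5.77 RPM without and 11.6 ± 5.86 RPM with glucose in Ler, with overlap, and at 23.4 ± 1.01 and 18 ± 1.92 RPM in gin2, without it. CYCB1;1 overlapped between the groups in both lines. The part of these markers in the H3.1 change was not tested.

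Between gin2 and Ler no member was called without glucose, where 51.5% of all genes were, or with it, where 58.7% were. Limma gave an unadjusted p below 0.05 for AT4G40030 alone, without glucose. RPM of the median gene was higher in gin2 by 0.55 and 0.62 on the log2 scale, where the listed genes hold less of the RPM total in Ler. Scaling decided the direction. With median-of-ratios scaling 5 members were called without glucose and 5 with it, all lower in gin2, and with RPM over nuclear genes listed in every library 4 and 2, again all lower. AT5G10390 was the member farthest below the median gene, at -0.96 relative to it in both conditions, and it was called as lower under both scalings (-0.96 and -0.85 without glucose, -0.97 and -0.86 with it).

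ACC was compared with mock at 2 h and 4 h to ask how transcripts respond to the ethylene precursor. H3 changes were small. At 2 h no member was called by limma, edgeR or DESeq2, against 9.25% of all 19442 genes by limma, and AT5G10980 alone had an unadjusted limma p below 0.05. At 4 h 2 of 8 were called, against 19.4% of all genes, and both fell. AT1G09200 stood at 129, 113 and 119.6 RPM with mock and at 82.1, 99.4 and 88.1 RPM with ACC for 4 h, a log2 change of -0.42 ± 0.12 (limma adjusted p = 0.0292). AT5G10980, the H3.3 gene with the hexamer upstream, stood at 176, 167 and 177 RPM and at 129, 133 and 132 RPM, a change of -0.40 ± 0.11 (limma adjusted p = 0.0192). Every ACC library was below every mock library for both genes. Summed markers of green tissue were lower at the same time, at 17495 to 20019 RPM against 22351 to 24245 RPM with mock. Those of root were at 3130 to 3605 RPM against 4015 to 4663 RPM, and the part of these markers in the H3 changes was not tested. Each call was lost without any filter on low genes (adjusted p = 0.119 and 0.0839) and when 1 of the mock libraries numbered 1 or 3, or of the ACC libraries numbered 1 or 3, was left out, with adjusted p up to 0.115.

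The ACC library numbered 3 at 2 h stood apart from the other libraries of its group for the same 2 genes. AT1G09200 was at 84.9 RPM there against 128 and 115 RPM, and AT5G10980 at 121 RPM against 180.2 and 165 RPM, values in or below the range of the 4 h ACC libraries. Without it the log2 changes at 2 h were -0.05 and -0.07. The ACC effects at 4 h and 2 h differed for no member (0.036% of all genes were called, and AT3G27360 alone had an unadjusted limma p below 0.05), but without that library AT5G10980 was called at -0.33 (limma adjusted p = 0.0407). The other members at 4 h lay between a log2 change of -0.18 for AT5G10400 and 0.35 for AT3G27360, not called. Mock at 4 h and at 2 h differed for no member, with 0.0566% of all genes called and no member with an unadjusted limma p below 0.05.

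The other histone families were counted for glucose against no glucose, where 35.7% of all genes rose and 20.6% fell in Col-0. The single other H3-like gene that passed the filter, HTR12 (the centromeric H3), rose in Col-0 by 0.79 ± 0.16 (limma adjusted p = 0.000791). Of 12 H2A genes 7 rose and 2 fell in Col-0, with the H2A.X gene GAMMA-H2AX at 1.22 ± 0.10 and the H2A.Z gene HTA9 at -0.72 ± 0.11. Of 9 tested H2B genes 3 rose and 1 fell, and of 8 H4 genes, which encode the partner of H3, 1 rose (AT3G45930, 0.51) and 1 fell (AT3G53730, -0.37). The 3 genes of the linker histone H1 all fell, from -0.73 to -2.05 on the log2 scale, in Col-0, and for none of them was the difference between the glucose effects in tor and Col-0 called. List medians were 0.56 for H2A, -0.04 for H2B, 0.08 for H4 and -0.76 for H1, beside 0.80 for H3.1 and 0.14 for all genes.

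Genes that place or read H3.1 rose with glucose in Col-0, all 6 of 6. They are the CAF-1 subunit genes FAS1 (0.94 ± 0.25), FAS2 (0.88 ± 0.17) and MSI1 (0.79 ± 0.10), TSK (1.25 ± 0.26), whose protein reads newly placed H3.1, and the H3.1 methyltransferase genes ATXR5 (0.53 ± 0.14) and ATXR6 (1.36 ± 0.25). In tor 1 of the 6 was called, MSI1 at 0.42, against 34.7% of all genes. For none of the 6 was the difference between the glucose effects in tor and Col-0 called, against 17.4% of all genes. Its values ran from -0.28 to -0.98. In tor against Col-0 with glucose 5 of the 6 were lower, against 24.1% of all genes. Without glucose 2 were lower and 1 was higher, where 15.0% of all genes were lower and 40.3% higher. Of 10 genes for H3.3 and general H3 chaperones 2 rose and 2 fell in Col-0, with HIRA at 0.37 and AT1G21610 at -0.61. All 14 DNA replication genes rose in Col-0, with a median of 1.57, and PCNA1, the sliding clamp of the replication fork and also 1 of the dividing-cell markers above, went from 5.78 ± 1.15 to 31.5 ± 2.67 RPM. For 11 of these 14 the glucose effect was lower in tor, against 11.2% of all genes. Of 8 mitosis genes 5 rose in Col-0 and none was called for the difference between the glucose effects. In Ler and gin2, 13 and 14 of the DNA replication genes and 3 and 4 of the 6 genes that place or read H3.1 rose, with ATXR6 at 1.32 ± 0.22 and 1.67 ± 0.22. Of all genes 17.4% rose in Ler and 18.7% in gin2.

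**Figure D4:**
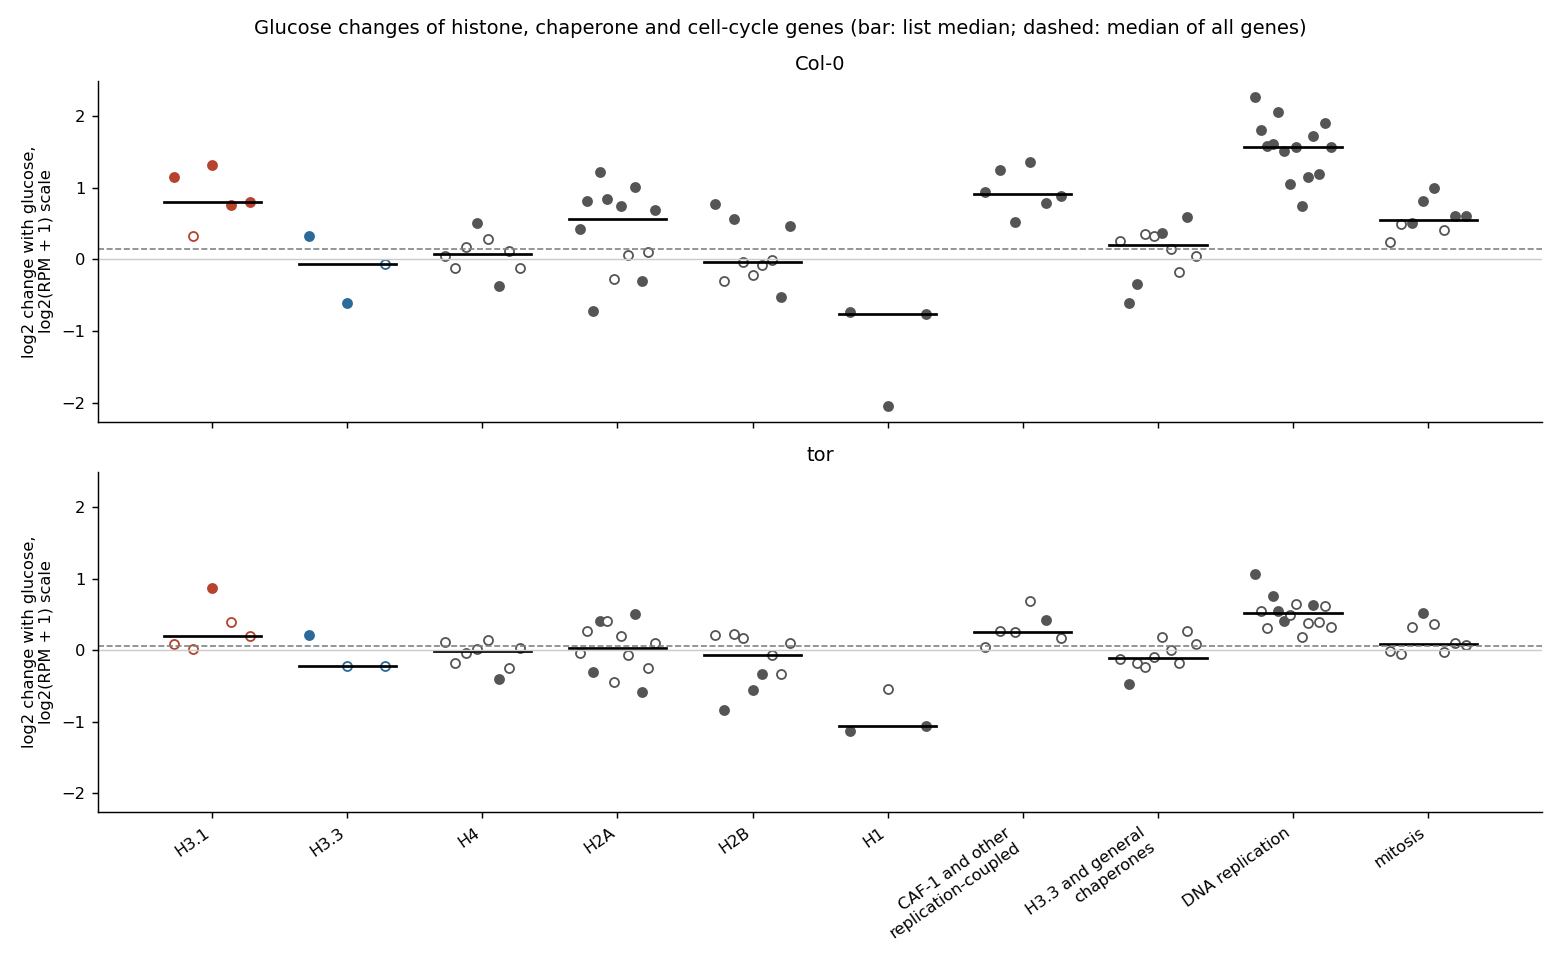
Glucose changes on the log2(RPM + 1) scale (vertical axes) of single genes, by list, in Col-0 (top) and tor (bottom); filled points have limma adjusted p below 0.05, solid bars are list medians, and the dashed line is the median of all genes. In Col-0 the medians were 0.80 for H3.1, 0.91 for the CAF-1 and other replication-coupled list and 1.57 for DNA replication, and in tor they were 0.20, 0.26 and 0.52.

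With ACC at 4 h, 5 genes of the other histone families were called, where 19.4% of all genes were. They were 1 rise and 2 falls among 12 H2A genes tested, 1 fall among 10 H2B genes and 1 fall among 2 H1 genes. AT1G06760, an H1 gene, was at 162 ± 7.97 RPM with mock and 88.6 ± 8.43 RPM with ACC (log2 change -0.86 ± 0.14, limma adjusted p = 0.000902). HTA2, H2AXA and HTB1, H2A and H2B genes, fell by 0.52 ± 0.12, 0.38 ± 0.10 and 0.31 ± 0.08 on the log2 scale, and HTA9 rose by 0.23 ± 0.06. Neither any H4 gene nor any of the 14 DNA replication genes was called.

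Members of a class did not all vary alike. Over the 24 libraries of the ethylene and glucose-TOR experiments, each centred on its own mean, Pearson's r between single genes was 0.93 for AT5G10390 with AT5G10400 and 0.61 to 0.85 for the other pairs of H3.1 genes that do not include the low AT3G27360. Among H3.3 genes it was 0.75 for AT4G40040 with AT5G10980, 0.43 for AT4G40030 with AT5G10980 and 0.16 for AT4G40030 with AT4G40040. AT5G10390 and AT4G40040, of different classes, had r = -0.82. These libraries share the treatments, so the values describe this design only.

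Of 15363 genes with a mean of at least 5 RPM, those most like the mean of the H3.1 genes over the 24 libraries were AT5G54970 (r = 0.93), HTA11 (H2A.Z, 0.92), HTA6 (H2A.W, 0.92), GHR1 (a receptor-like kinase, 0.92), ORC1B (a subunit of the origin recognition complex, 0.91) and FLA7 (a fasciclin-like cell surface protein, 0.91). The 4 H3.1 genes above that level had r of 0.82 to 0.95 with their own mean. Each of them is part of that mean, so these r cannot be set against those of other genes. Most like the mean of the H3.3 genes were AT1G07310, AT5G63260, VEP1, PDE331, FIP1 and AT4G16830, at 0.98 to 0.97. The members, each part of that mean, were lower at 0.51 to 0.94.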

How the data were processed

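Per the submitters' processing notes, TopHat and HTSeq were used, with versions, genome build, strand setting and treatment of multiply matching reads not given. The authors deposited RPM values in 1 table of 36 libraries. Within each experiment a gene needed 1 RPM or more in 3 or more libraries, and log2(RPM + 1) was fitted over the 12 libraries of each experiment with limma 3.58.1 (R 4.3.3, mean-variance trend), with 14 contrasts, Benjamini-Hochberg adjustment over all genes tested, two-sided. A change on this scale understates that of low genes. All 8 members passed the filter in every experiment. Their values are whole multiples of 1 read within 0.02 reads in the ethylene, glucose-TOR and Ler libraries, and the recovered counts (100% of values whole) were tested with edgeR 4.0.16 and DESeq2 1.42.0 as alternatives, which called 11451 and 11404 genes for glucose in Col-0 where limma called 10883. gin2 comparisons had no count test, since the table holds gin2 values off that step for genes not listed in Ler. Levels per kb use RefSeq TAIR10.1 exon lengths, which may not be the authors' annotation. No molecular identifiers are recorded, so duplicate reads cannot be removed and depth speaks for counting error only. Nothing says that the libraries come from separate sowings, so p-values measure the spread between these libraries. Members, gene lists, comparisons and the rule for named genes (all members, TOR and HXK1, per list up to 4 called genes with the largest change plus other H3-like and H3 chaperone genes, and the 6 genes most like each class) were chosen with earlier results of these data known. H4, H2A, H2B and H1 codes were checked by aligning their translated RefSeq coding sequences. Whether equal replicate numbers pair libraries was read from correlated residuals of same-numbered libraries over genes. Each of the 3 pairs exceeded r = 0.1 in the mock time comparison alone (0.595, 0.411 and 0.382), and there the replicate block called no member either. The fit was also run on simulated counts with 1 spread for all genes and 1 depth for all libraries. These data have neither, so that run cannot speak for the calls made here. A total of 17 codes with a suffix were not used.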

Additional observations from a re-analysis of the deposited data

Results flagged for a closer look

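The glucose effect differed between the line labelled tor and Col-0 for AT1G09200, by -1.07 ± 0.28 on the log2 scale (limma adjusted p = 0.0193), and for AT5G65360, by -0.60 ± 0.16 (limma adjusted p = 0.0192), each by a test of the difference itself. Both are H3.1 genes, and in all 3 Col-0 glucose libraries both were above every Col-0 library without glucose. The call for AT1G09200 held in 18 of 20 alternatives and that for AT5G65360 in 15 of 20. In tor glucose changed AT1G09200 by 0.08 ± 0.20 and AT5G65360 by 0.20 ± 0.11 on the log2 scale, neither called. Of the dividing-cell markers, PCNA1 went from 5.78 to 31.5 RPM in Col-0 and from 4.67 to 10.8 RPM in tor, as group means. Its libraries with and without glucose overlapped in neither line. CYCB1;1 went from 2.42 to 4.21 RPM in Col-0 and from 2.24 to 2.47 RPM in tor, whereas SYP111 stood at 10.6 and 12.6 RPM in Col-0 and at 9.15 and 9.12 RPM in tor. The part of these markers was not tested.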

How the results depend on the processing

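Of 31 called values of single members 15 were called under every alternative run and 16 were lost under at least 1. Of 1656 values of single members under the alternatives, called or not, 78 changed sign while called in neither setting, up to an absolute log2 value of 0.5564. The cause was not tested, except that fewer libraries or genes enter some fits. Numbers of members called (of 8) moved as follows. ACC at 4 h gave 4 with only the groups compared, 0 with no filter and 0 to 2 leaving out 1 library, where the call without the mock library numbered 1 was a rise of AT3G27360 (0.44, limma adjusted p = 0.0432); the ACC difference between times gave 0 to 1. Glucose in tor gave 1 by edgeR, with median-of-ratios scaling or with its own libraries only, and 0 to 4 leaving out 1 library. The tor and Col-0 difference in glucose effect gave 1 with median-of-ratios, 0 with edgeR and 0 to 3. tor against Col-0 gave 2 without glucose under median-of-ratios, edgeR and DESeq2, and 3 to 6 with glucose leaving out 1 library. Glucose in Ler gave 2 with only the groups compared and 2 to 5. gin2 against Ler gave 5 (median-of-ratios), 4 (nuclear genes listed in every library) and 0 to 1 without glucose, and 5, 2 and 0 to 1 with it. Equal replicate numbers pair the libraries in no comparison but mock 4 h against 2 h; with the replicate block glucose in tor had 1 call and gin2 against Ler without glucose 1. Directions turned for AT4G40030 in tor without glucose (edgeR -0.009073), and between gin2 and Ler under median-of-ratios for AT4G40040 (-0.55), AT5G10400 (-0.59) and AT5G10980 (-0.37) without glucose and AT4G40040 (-0.51), AT5G65360 (-0.46), AT5G10400 (-0.35) and AT4G40030 (-0.34) with it, and over nuclear genes for AT4G40040 (-0.39) and AT5G10400 (-0.44), then AT4G40040 (-0.37). Summed levels in RPM moved by more than 1 SD under median-of-ratios to 92.4 (H3.1, Col-0 without glucose), 59.4 and 111 (H3.1, gin2 without and with glucose), and for H3.3 to 619 (mock 4 h), 574 (ACC 4 h), 867 (Col-0 without glucose), 1020.2 and 909 (tor without and with), 702 (Ler without), 537 and 403 (gin2). Over nuclear genes they moved to 118 and 225 (H3.1, Ler), 83.9 and 176 (H3.1, gin2), 618 (H3.3, mock 4 h), 888 and 762 (H3.3, Ler), and 759.8 and 637 (H3.3, gin2). No count test was run on gin2 comparisons. Low reads limit AT3G27360 most, and the Ler libraries differ most in the part of the RPM total that the listed genes leave out.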
